A study of Mus musculus with 25 samples.

Results

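Genes that mark or serve alveolar macrophages were followed in lung RNA of mice given thoracic irradiation, a compound acting on sphingosine 1-phosphate receptors, both or neither. The set comprised 10 genes, and each was read from the probe set that carries its symbol alone and has the highest mean over all 25 arrays. A probe set was found for 9 of the 10 (Chil3, Ctsk, Ctsd, Marco, Itgax, Fabp4, Pparg, Atp6v0d2 and Plet1), and 8 of them were among the 12937 genes tested, of 18193 with a probe set. No probe set was matched to Ear2, an eosinophil-associated ribonuclease, and Marco fell below the filter on low signal, so it was tested in a fit of all 18193 genes.

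The mice were female wild-type C57BL/6J animals aged 14 to 17 weeks and weighing 20 to 25 g, and each gave 1 array of whole-lung RNA. Control mice received phosphate-buffered saline (n = 4). The groups fTyS, SEW and FTY received (S)-FTY-phosphonate, SEW-2871 or FTY720 at 0.1 mg/kg into the peritoneum, 2 times a week, without irradiation (n = 3 each). The radiation group received a single dose of 25 Gy to the thorax (n = 3), and the groups radiation+fTyS, radiation+SEW and radiation+FTY received that dose and the named compound (n = 3 each). FTY720 (fingolimod) becomes active at sphingosine 1-phosphate receptors once phosphorylated, (S)-FTY-phosphonate carries a phosphonate in the position of that phosphate, and SEW-2871 is an agonist of the receptor S1pr1. The interval from irradiation to collection is not given in the sources used here, and neither is any batch.

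Alveolar macrophages live on the air side of the alveolus, where they take up surfactant lipid, dust and microbes. Their identity depends on granulocyte-macrophage colony-stimulating factor (GM-CSF), which induces the nuclear receptor Pparg, and on a large lysosomal compartment that digests what they engulf. After lung injury the resident cells can be lost and replaced by cells derived from monocytes, which acquire the resident genes at different rates. In whole-lung RNA fewer cells of a type and less RNA per cell cannot be told apart. Levels below are log2(signal + 16), and a gene was called when its adjusted p in limma (Benjamini-Hochberg over all genes tested in a comparison) was at most 0.05.

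Promoters were available for 8 of the 10 genes, as the 250 bases before the start in RefSeq on GRCm38.p6, and they were searched on both strands for CACGTG (the E-box), TCACGTGA (the E-box as factors of the TFEB type read it, which contains the former), a pair of AGGTCA 1 base apart (read by Pparg with its partner) and GAGGAA (the core of the PU.1 site). Of 32851 promoters of this length, 6.02% held CACGTG, 0.785% TCACGTGA, 0.0335% the AGGTCA pair and 23.3% GAGGAA. The 3 printed here belong to Ctsd, Ctsk and Marco, genes that moved with radiation and whose promoters held a match, given in capitals. The promoter of Ctsd (chr7:142387828-142388077, minus strand) held 2 matches to CACGTG, 1 of them within TCACGTGA. That of Ctsk (chr3:95498960-95499209, plus strand) held 2 matches to GAGGAA, 1 of them read on the other strand. That of Marco (chr1:120505025-120505274, minus strand) held 1 match to GAGGAA.
Ctsd promoter: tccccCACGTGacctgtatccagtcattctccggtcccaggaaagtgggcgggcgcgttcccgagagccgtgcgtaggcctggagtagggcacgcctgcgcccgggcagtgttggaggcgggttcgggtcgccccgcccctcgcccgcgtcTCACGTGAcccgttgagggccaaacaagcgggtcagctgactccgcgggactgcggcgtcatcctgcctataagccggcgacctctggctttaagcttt
Ctsk promoter: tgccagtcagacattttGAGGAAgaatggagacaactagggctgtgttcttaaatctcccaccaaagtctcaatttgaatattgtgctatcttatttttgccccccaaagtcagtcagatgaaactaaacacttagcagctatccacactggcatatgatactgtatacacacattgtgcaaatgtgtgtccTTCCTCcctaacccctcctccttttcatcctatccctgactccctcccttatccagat
Marco promoter: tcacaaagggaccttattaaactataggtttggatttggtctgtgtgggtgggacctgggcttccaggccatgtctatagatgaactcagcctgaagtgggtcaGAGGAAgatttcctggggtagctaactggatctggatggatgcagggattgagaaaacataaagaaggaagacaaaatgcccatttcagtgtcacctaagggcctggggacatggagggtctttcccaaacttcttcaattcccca
Of the 3 Pparg promoters 1 held GAGGAA, and the promoters of Chil3, Itgax, Plet1 and Ear2 held none of the 4. A match describes letters in this window and was not tested for binding.

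Radiation alone raised 4 of the 8 genes tested, against 4.4% of all genes called in that comparison: Ctsk, Ctsd, Chil3 and Atp6v0d2. The median log2 fold change of the 8 was 0.36, and that of all genes was -0.01. The genes were chosen with earlier results of these data known, so these figures describe the set and do not test it. Cathepsin K (Ctsk), a lysosomal protease that cleaves collagen and elastin, read 8.46, 9.28, 9.05 and 9.39 in control mice and 10.40, 9.57 and 9.72 after radiation. The groups did not overlap, and radiation replicate 1 stood highest of all 25 arrays. The log2 fold change was 0.85 ± 0.19 (SE; adjusted p = 0.0124, limma). Cathepsin D (Ctsd), an aspartic protease of the lysosome, read 11.81, 11.68, 11.61 and 11.98 in control and 12.32, 12.08 and 12.06 after radiation. Again every irradiated array was above every control array, by a smaller distance, and the log2 fold change was 0.38 ± 0.09 (adjusted p = 0.0183, limma).

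Chil3, which encodes the secreted chitinase-like protein Ym1 and is among the most strongly expressed genes of mouse alveolar macrophages, read 12.34, 11.95, 12.07 and 12.69 in control and 12.99, 12.85 and 12.80 after radiation. The groups did not overlap, although control replicate 4 came close to the irradiated arrays, and the log2 fold change was 0.62 ± 0.15 (adjusted p = 0.0262, limma). Atp6v0d2, a subunit of the proton pump that acidifies lysosomes, used by macrophages and osteoclasts, read 8.76, 8.07, 7.72 and 8.78 in control and 9.61, 9.04 and 9.02 after radiation. Its log2 fold change was 0.89 ± 0.24 (adjusted p = 0.0429, limma), and a second probe set of the gene gave 0.88 ± 0.26. The call was lost without the filter on low signal (adjusted p = 0.0543, limma). Itgax, the integrin chain CD11c, read 9.21, 8.96, 9.02 and 9.26 in control and 9.60, 9.41 and 9.36 after radiation. These groups did not overlap either, but the difference of 0.34 ± 0.16 missed the threshold (adjusted p = 0.296, limma). Plet1, a surface protein anchored in the membrane by a lipid, differed by 0.16 ± 0.13, Fabp4 by 0.24 ± 0.67 and Pparg by 0.00 ± 0.41, with overlapping groups for each.

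The calls for radiation alone rested on few arrays. Leaving out control replicate 2 or 3 left 1 call, leaving out radiation replicate 2 left 2, and leaving out radiation replicate 1 left 0. Atp6v0d2 lost its call in each of these cases and also without radiation replicate 3. Of the arrays left out in turn, only radiation replicate 1 cost Ctsk its call (0.60, adjusted p = 0.123, limma). Control replicate 4 stood apart from its group: the mean level of 13 targets of the DNA-damage factor p53 was 9.95 on it, against 9.16 to 9.56 on the other 12 unirradiated arrays and 9.81 to 10.08 on the irradiated arrays. Without it the same 4 genes were called, with log2 fold changes of 0.97 for Ctsk, 0.45 for Ctsd, 0.76 for Chil3 and 1.04 for Atp6v0d2. The share of all genes called without it is not given here.

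**Figure D1:**
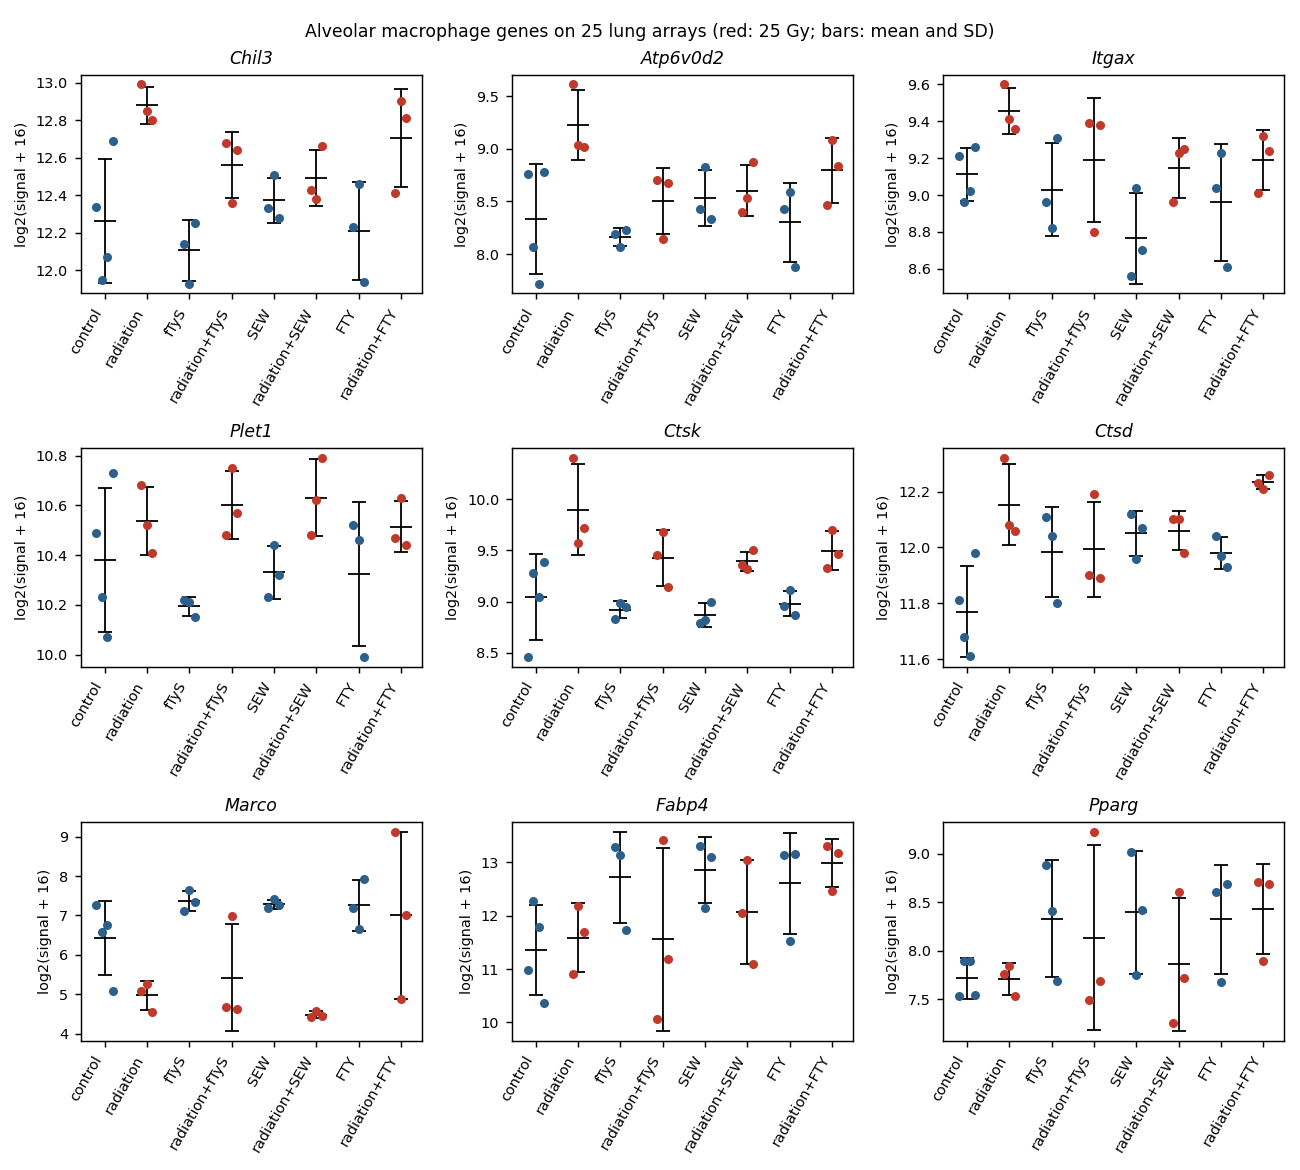
Level of each of the 9 measured genes, log2(signal + 16), on every array of the 8 groups; points are mice (red, 25 Gy; blue, no radiation) and bars the group mean and SD. Ctsk and Chil3 sit higher in the irradiated groups, Marco sits at or below 5.27 on 9 of 12 irradiated arrays, and Fabp4 and Pparg scatter widely within groups.

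Radiation was also compared across the groups given a compound. The first such comparison, between the mean of all 4 irradiated groups and the mean of all 4 unirradiated groups, was added after the data were seen and called 6 of the 8 genes, all higher, against 20.8% of all genes. It includes the radiation and control arrays, so it is no separate evidence for the genes named above. A comparison of the 9 mice given radiation and a compound with the 9 given a compound alone was then added, with that count known, because it shares no array with radiation against control. It called 3 of the 8 genes, all higher: Ctsk, Chil3 and Plet1. The share of all genes called there was 26.4%, so 3 of 8 lies near the background.

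Ctsk was higher by 0.51 ± 0.12 in the comparison of 9 with 9 (adjusted p = 0.00355, limma). It ran from 8.79 to 9.11 on the arrays given a compound alone and from 9.14 to 9.70 on those that were also irradiated, with no overlap. Chil3 was higher by 0.35 ± 0.10 (adjusted p = 0.00994, limma), with levels of 11.93 to 12.51 without radiation and 12.36 to 12.90 with it, which overlapped. Plet1 was higher by 0.30 ± 0.08 (adjusted p = 0.0122, limma), with levels of 9.99 to 10.52 and 10.44 to 10.79. A second probe set of Plet1 gave 0.16 ± 0.12 and another, dimmer one -0.14 ± 0.06, neither called, and Plet1 was not called when its probe sets were averaged. Itgax (0.26 ± 0.10, adjusted p = 0.064, limma), Atp6v0d2 (0.30 ± 0.15, adjusted p = 0.151, limma) and Ctsd (0.09 ± 0.06, adjusted p = 0.267, limma) were called across all 25 arrays, at 0.28, 0.45 and 0.16, but not among these 18. The call of Itgax across all 25 arrays was lost with the Gapdh covariate (0.23, adjusted p = 0.0528, limma) and without SEW replicate 1 (0.26, adjusted p = 0.0511, limma). Of the 4 genes called with radiation alone, Ctsk and Chil3 were thus called in separate mice, and Ctsd and Atp6v0d2 were not.

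**Figure D2:**
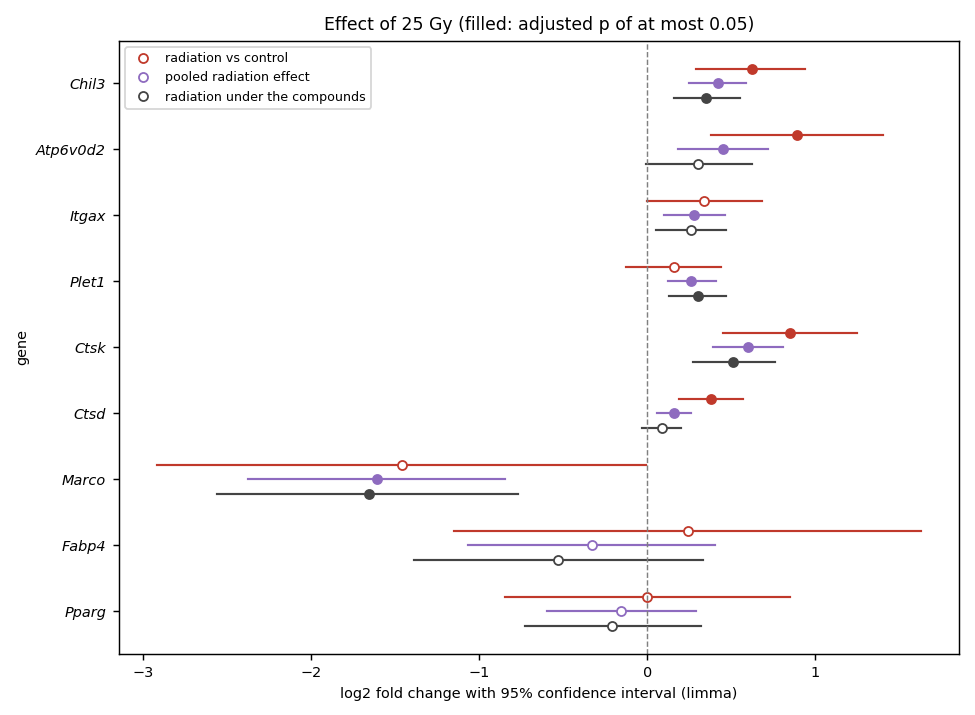
Log2 fold change with 95% confidence interval for radiation against control (red), all irradiated against all unirradiated groups (violet) and radiation with a compound against the compound alone (grey); filled points had an adjusted p of at most 0.05. Ctsk and Chil3 are filled in all 3 comparisons, Marco lies on the other side of 0 (-1.46, -1.61 and -1.66), and the intervals of Fabp4 and Pparg are wide.

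Marco, a scavenger receptor that binds unopsonised particles and bacteria, went the other way. It read 7.27, 6.59, 6.76 and 5.09 in control and 5.08, 5.27 and 4.56 after radiation, where control replicate 4 lay among the irradiated arrays. The difference of -1.46 ± 0.70 was not called (adjusted p = 0.359, limma, all genes), and an exact two-sided permutation test gave p = 0.0857, where 0.0286 is the smallest it can give. SEW arrays read 7.18, 7.41 and 7.27, and radiation+SEW arrays 4.42, 4.58 and 4.44. That difference, with no overlap, was -2.80 ± 0.74 (adjusted p = 0.0189, limma; 11.5% of all 18193 genes called). It lost its call on leaving out any 1 SEW array or radiation+SEW replicate 3, with values from -2.86 to -2.75, and with the Gapdh 3' to 5' signal difference, a measure of RNA quality, as a covariate (-2.41, adjusted p = 0.0964, limma). That difference was -0.17, 0.06 and -0.12 on the SEW arrays and -0.04, 0.18 and 0.43 on the radiation+SEW arrays. With the mean of 8 neutrophil genes as a covariate the call of Marco was lost too (-2.25, adjusted p = 0.11, limma). An exact permutation test of radiation+SEW against SEW gave p = 0.1, the smallest it can give with 3 against 3 arrays. The radiation+SEW signals were only 5.48, 8 and 5.67, so the size depended on the pseudocount, at -4.27 with 1 and -1.54 with 64, and it was -1.56 for the mean of both probe sets. Across the 9 and 9 mice given a compound Marco was lower by -1.66 ± 0.43 (adjusted p = 0.0104, limma; 17.6% called; -2.51 with a pseudocount of 1 and -0.89 with 64), and across all 25 arrays by -1.61 ± 0.37 (adjusted p = 0.00551, limma; 13.8% called).

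The fall of Marco was uneven among irradiated mice. Radiation+fTyS arrays read 4.67, 6.98 and 4.62, and radiation+FTY arrays 9.13, 4.89 and 7.01. On the 3 high arrays the mean of 10 adipocyte genes was 10.3, 9.99 and 8.99, and on radiation+SEW replicate 2, where Marco read 4.58, it was 9.41. With that mean as a covariate Marco was lower by -1.38 ± 0.38 across the 9 and 9 mice (adjusted p = 0.0133, limma). The gene is dim, at the 36.5th percentile of all probe sets, and its second probe set, dimmer still, differed by -0.13 ± 0.14 in the same comparison, which was not called.

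Fabp4, a fatty-acid carrier induced by Pparg in macrophages and abundant in fat cells, and Pparg itself were not called in any comparison of the main fit, planned or added. In an alternative fit with array weights, all 8 tested genes, both of these among them, were called for radiation+fTyS against fTyS. That fit also called a larger share of all genes. Fabp4 read 10.98, 12.27, 11.78 and 10.37 in control, 13.29, 13.14 and 11.74 with fTyS, 13.31, 12.15 and 13.11 with SEW, and 13.14, 11.52 and 13.16 with FTY. The widest spread within a group was in radiation+fTyS, with 10.06, 13.42 and 11.19. Pparg read 7.53 to 7.90 in control, 7.53 to 7.84 after radiation and 7.26 to 9.23 in the other 6 groups. Both followed the mean of the adipocyte genes over the 25 arrays, which ranged from 6.83 to 10.3, with Pearson's r = 0.947 for Fabp4 and 0.938 for Pparg. The gene most like Fabp4 was Adipoq, the fat-cell hormone adiponectin (r = 0.977), followed by Car3 and Ephx2, and those most like Pparg were Chpt1, Adhfe1 and Hibch (r = 0.964 to 0.962). With the adipocyte mean as a covariate, the differences of Fabp4 between the compounds and control went from between 1.26 and 1.51 to between 0.11 and 0.29. These correlations, like those below, are descriptions over arrays that share their libraries.

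**Figure D3:**
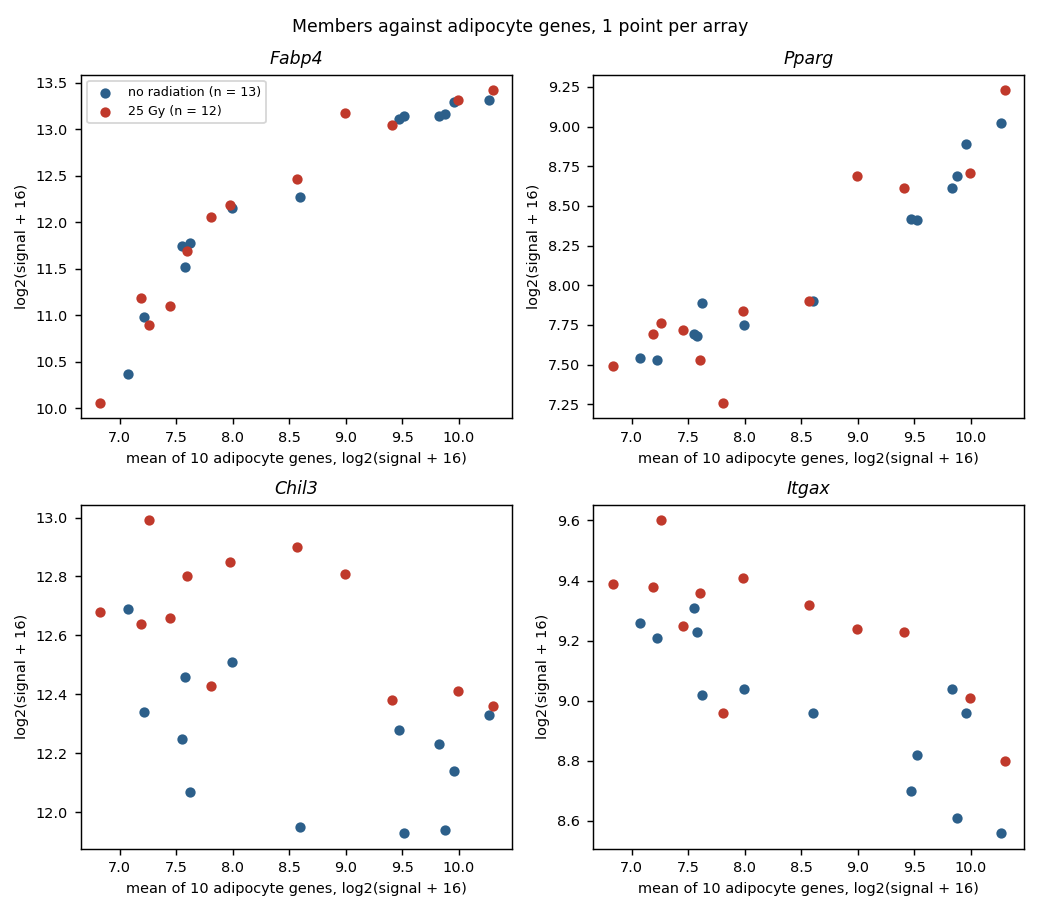
Level of Fabp4, Pparg, Chil3 and Itgax against the mean of 10 adipocyte genes, both as log2(signal + 16), 1 point per array (13 without and 12 with 25 Gy). Fabp4 and Pparg rise along the adipocyte axis with both colours on 1 band (r = 0.947 and 0.938), while Itgax falls along it (r = -0.744).

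The other measured genes did not form a single block. Chil3 and Atp6v0d2 were each other's most similar gene of all tested (r = 0.918, and 0.872 after group means were removed), and Itgax followed both (0.75 with Chil3 and 0.74 with Atp6v0d2). Ctsk followed Chil3 across arrays (0.687) but hardly within groups (0.189). Its most similar genes were Tgfbi, Commd3 and S100a4 (0.878 to 0.858), those of Ctsd were Ccdc124, Atox1 and Babam2 (0.892 to 0.857), and those of Itgax were Slc12a4, Cd200r4 and Fpr2 (0.90 to 0.893). Plet1 was most like Mrc1, Lcn2 and F7 (0.879 to 0.846), and Marco most like Pla2g2d, Aldh9a1 and Mknk2 (0.823 to 0.798). Marco ran against Chil3 (r = -0.622, and -0.679 within groups).

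Of the 8 genes, 1 was called for a compound given without radiation, a count near the background. With SEW, Ctsd read 12.12, 11.96 and 12.07, against 11.61 to 11.98 in control, and was higher by 0.28 ± 0.09 (adjusted p = 0.0426, limma). This was 1 of 8 where 14.6% of all genes were called, so it is not set apart from the background. The call was kept under 7 of 14 alternative settings of the processing. It was lost on leaving out control replicate 2 or 3 or SEW replicate 1 or 3. With fTyS 0 of 8 were called (0.178% of all genes), with 1 at an unadjusted p under 0.05, and with FTY 0 of 8 (2.73%), also with 1. Ctsd was that gene in both, at 0.22 ± 0.09 and 0.21 ± 0.09. Of all 12937 genes, 1942 with fTyS and 2390 with FTY had an unadjusted p under 0.05. Marco was 0.94, 0.86 and 0.83 above control with fTyS, SEW and FTY, each with an SE of 0.70 and none called. The compounds were also compared with each other at their common dose. Called were 0 of 8 for fTyS against FTY (0% of all genes), 0 for fTyS against SEW (1.55%) and 0 for FTY against SEW (0%), with 0 of 8 at an unadjusted p under 0.05 in each. Of all 12937 genes 769, 2266 and 1178 were under it, in the same order. For Chil3 the difference between fTyS and SEW was -0.27, with a 95% interval of -0.61 to 0.08.

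Adding a compound to radiation called none of the 8 genes. The same 3 radiation arrays are the reference for all 3 compounds, and they are the arrays on which 4 of these genes were called high. In the direction of the estimates below, a compound's effect and high values on those arrays cannot be told apart. Called were 0 of 8 for radiation+fTyS against radiation (0.858% of all genes), radiation+SEW against radiation (2.48%) or radiation+FTY against radiation (3.02%), where 2, 3 and 0 had an unadjusted p under 0.05. Among all 12937 genes these numbers were 1610, 2236 and 3010. Atp6v0d2 averaged 9.22 ± 0.33 (SD, n = 3) after radiation, 8.50 ± 0.32 with fTyS added, 8.60 ± 0.24 with SEW and 8.80 ± 0.31 with FTY. The differences were -0.72, -0.62 and -0.43, with 95% intervals of -1.27 to -0.17, -1.17 to -0.08 and -0.97 to 0.12. Ctsk averaged 9.90 ± 0.44 after radiation and 9.42 ± 0.27, 9.39 ± 0.09 and 9.50 ± 0.19 with fTyS, SEW and FTY added, which gave -0.47, -0.51 and -0.40. Chil3 was lower by -0.32, -0.39 and -0.18. Marco with FTY added was higher by 2.05 ± 0.74 (adjusted p = 0.146, limma; exact permutation p = 0.3), from arrays that read 9.13, 4.89 and 7.01.

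**Figure D4:**
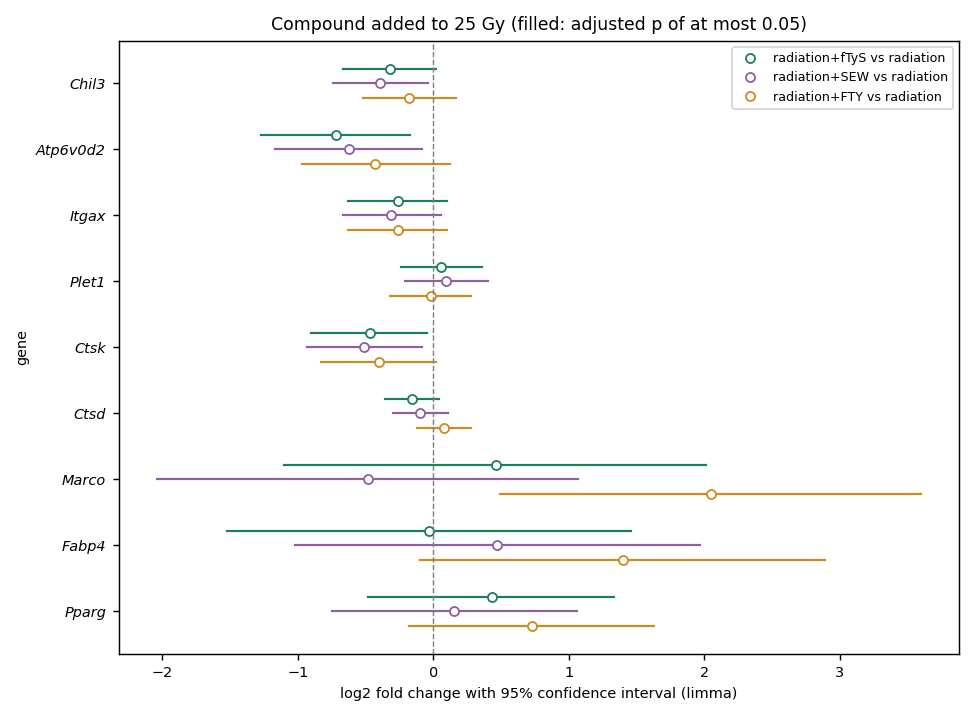
Log2 fold change with 95% confidence interval of each gene for fTyS, SEW or FTY added to radiation, against radiation alone; open points had an adjusted p above 0.05. No point is filled, and all points of a gene share the same 3 radiation arrays as their reference, so their common side of 0 is no separate evidence.

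Between irradiated groups, called were 0 of 8 for radiation+fTyS against radiation+FTY (3.95% of all genes; 1 at an unadjusted p under 0.05), 0 for radiation+fTyS against radiation+SEW (0%; 0) and 0 for radiation+FTY against radiation+SEW (0%; 0). Over all 12937 genes 2689, 1414 and 1036 were under that unadjusted threshold in these 3 comparisons. In the first of these Ctsd differed by -0.24 ± 0.10, and in the last Marco differed by 2.53 ± 0.74 (adjusted p = 0.522, limma). Within each compound, radiation called 0 of 8 with fTyS (0.456% of all genes), 0 with SEW (17.7%) and 0 with FTY (14.1%), with 3 at an unadjusted p under 0.05 in each. Ctsk was among those 3 every time, at 0.50, 0.52 and 0.51, each with an SE of 0.20. Of all 12937 genes, 1721 with fTyS, 4100 with SEW and 3764 with FTY had an unadjusted p under 0.05. For SEW and FTY 3 of 8 thus lies near the background. Chil3 was 0.45 ± 0.17 with fTyS, 0.12 ± 0.17 with SEW and 0.50 ± 0.17 with FTY, the last with an adjusted p = 0.0506 (limma).

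Whether a compound changed the response to radiation was tested as an interaction. Called were 0 of 8 for fTyS (1.35% of all genes), 0 for SEW (13.9%) and 0 for FTY (6.84%), with 1, 3 and 0 at an unadjusted p under 0.05. For SEW these were Atp6v0d2 (-0.82 ± 0.36), Chil3 (-0.50 ± 0.23) and Ctsd (-0.38 ± 0.13, adjusted p = 0.0616, limma). Of all 12937 genes, 1959 for fTyS, 3758 for SEW and 3075 for FTY had an unadjusted p under 0.05. Without control replicate 4 the interaction with SEW called Chil3 (-0.64, adjusted p = 0.042, limma) and Ctsd (-0.45, adjusted p = 0.0247, limma), and radiation with FTY against FTY called Chil3 (0.50, adjusted p = 0.0263, limma). The shares of all genes called without that array are not given here. With all arrays they were 13.9% and 14.1%, so these calls are not set apart from the background.

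Genes of other leukocytes moved with radiation as well. For these and the lists below, 4.4% of all genes were called with radiation alone. Across the 9 and 9 mice 26.4% were called, 18.1% higher and 8.27% lower. Of 6 neutrophil genes tested 6 rose with radiation alone, among them Csf3r (3.29) and S100a9 (3.09), and 5 rose across the 9 and 9 mice. The mean over 8 neutrophil genes averaged 10.16 ± 0.66 (SD, n = 3) after radiation, 7.86 to 9 in the groups given a compound as well, and 7.04 to 7.88 in the unirradiated groups. Of 14 genes of monocytes and interstitial macrophages 6 rose with radiation alone and 10 across the 9 and 9 mice, with Ccr2 at 1.03 and 0.89, and none fell. Ctsk followed the neutrophil mean with r = 0.813 and the monocyte mean with r = 0.788. With the neutrophil mean as a covariate, which itself moves with radiation, no member kept a call for radiation in any of the 3 comparisons. Ctsk was then 0.11 and Chil3 -0.04 for radiation against control, and 0.26 and 0.14 across the 9 and 9 mice. For radiation against control Ctsk, Chil3, Ctsd and Atp6v0d2 each had an adjusted p = 0.999 (limma) with this covariate. The share of all genes called with it is not given here, so the lost calls do not set these genes apart from the background.

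Further genes of alveolar macrophages were read from a list of 24, of which 21 were tested. With radiation alone 4 rose and 2 fell, and across the 9 and 9 mice 4 rose and 4 fell, with a median of 0.07 against 0.03 over all genes. Higher in the latter were the mannose receptor Mrc1 (0.40 ± 0.09), the oxidised-lipid receptor Olr1 (0.37 ± 0.13), Cd200r1 (0.28 ± 0.08) and the cholesterol exporter Abcg1 (0.19 ± 0.05). Lower were the keratin Krt79 (-1.18 ± 0.15, adjusted p = 4.02e-05, limma), the fatty-acid carrier Fabp1 (-0.78 ± 0.19), the sialic-acid receptor Siglecf (-0.56 ± 0.14) and the tetraspanin Cd9 (-0.17 ± 0.04). Krt79 averaged 8.04 ± 0.44 (SD, n = 4) in control and 6.54 ± 0.26 (n = 3) after radiation, and 7.95 to 8.17 against 6.81 to 6.94 in the groups given a compound without and with radiation. Siglecf, which eosinophils share, differed by -0.06 ± 0.23 with radiation alone. The eosinophil genes Epx, Prg2, Ccr3 and Il5ra had means of 5.28, 5.47, 4.72 and 5.81, below the filter of 6.49. Alox15 and Cd24a, from the same list, had means of 8.03 and 12.79, above it. The part of eosinophils in the fall of Siglecf was not tested.

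**Figure D5:**
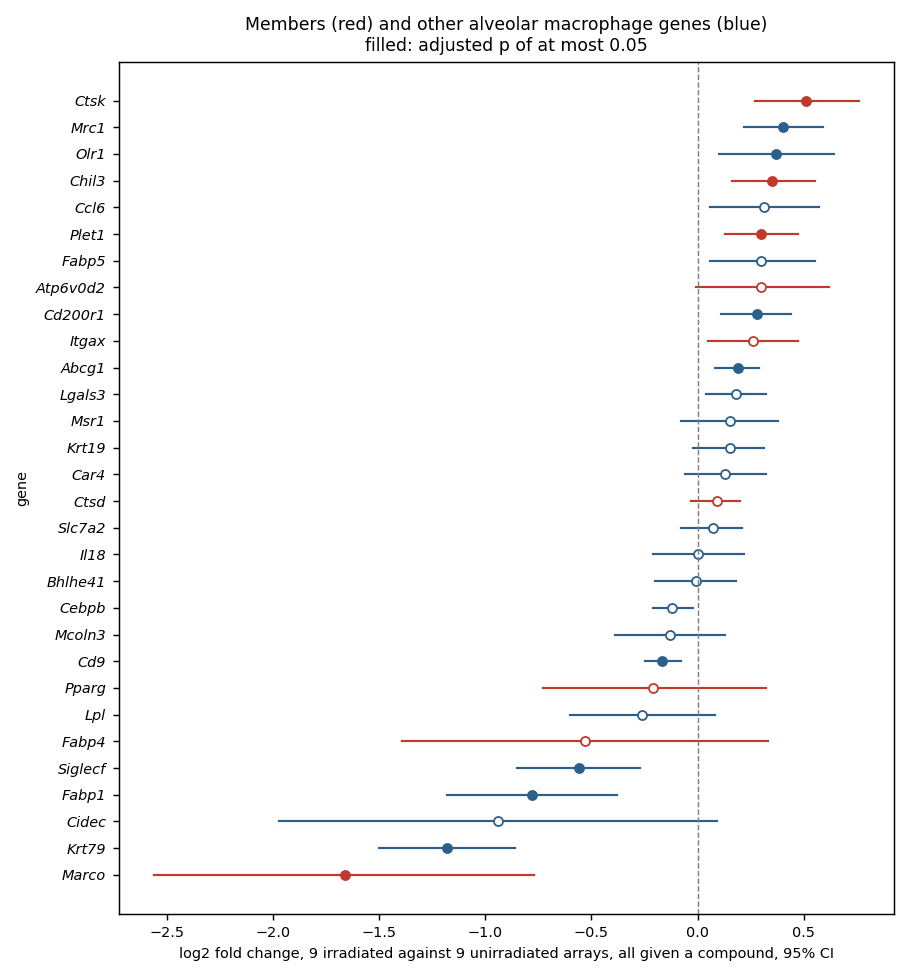
Log2 fold change with 95% confidence interval of the 9 measured genes (red) and 21 other alveolar macrophage genes (blue), between 9 mice given radiation and a compound and 9 given a compound alone; filled points had an adjusted p of at most 0.05. Ctsk (0.51) and Mrc1 (0.40) lie highest and Marco (-1.66) and Krt79 (-1.18) lowest.

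Ctsd, Ctsk and Atp6v0d2 act in the lysosome, and 34 further lysosomal and proton-pump genes were tested. With radiation alone 6 rose and 0 fell, among them Ctsa (0.47 ± 0.08), Psap (0.21 ± 0.04), Ctss (0.39 ± 0.09) and Lgmn (0.37 ± 0.09). Across the 9 and 9 mice 16 rose and 1 fell, with a median of 0.13 against 0.03 over all genes, led by the pump subunits Atp6v1c1 (0.25), Atp6v0a1 (0.35), Tcirg1 (0.31) and Atp6v1b2 (0.18). Of 16 scavenger and uptake receptors 6 rose with radiation alone and 8 rose and 2 fell across the 9 and 9 mice. The beta-glucan receptor Clec7a (0.59) and Fcgr1 (0.26) were higher in the latter and the lipid receptor Cd36 (-0.27) was lower. Of 16 genes of lipid handling 2 rose with radiation alone, Msr1 (0.75) and Gpnmb (0.77), and 5 rose and 1 fell across the 9 and 9 mice.

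The genes that could carry the same signals from other cells were read as well. Of 9 genes of collagen-making cells and osteoclasts, which also use Ctsk, 0 were called with radiation alone, and Col1a1 (0.50) and Col3a1 (0.27) rose and Nfatc1 (-0.18) fell across the 9 and 9 mice. The osteoclast genes Calcr, Ocstamp and Dcstamp had means of 6.07, 5.40 and 6.08, below the filter. Acp5 and Nfatc1, from the same list, had means of 8.95 and 9.61, above it. Of 8 adipocyte genes 0 were called in either comparison. Of 13 epithelial genes 1 rose with radiation alone, Chil4 (0.92 ± 0.19), a close relative of Chil3 whose transcripts can cross-hybridise. Across the 9 and 9 mice, where Plet1 was called, 3 of the 13 rose and 1 fell, near the shares of all genes. The part of these cells in the results was not tested beyond the covariates given.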

How the data were processed

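The authors deposited linear signal intensities of Affymetrix mouse probe sets. Per the submitters' processing notes they came from GCOS, and the summary and scaling steps are not given in the sources used here. Array medians ran from 118.33 to 129.58, and the number of arrays limits the precision. Probe sets of 1 symbol were kept, and values became log2(signal + 16). Genes not exceeding the 40th percentile of probe-set means (6.49) were left out. With R 4.3.3, limma 3.58.1 fitted the 8 groups together (lmFit, then eBayes with an intensity trend, leaving 17 residual degrees of freedom) for 19 planned comparisons, two-sided, adjusted within each. Members, gene lists and the naming rule (all members, up to 4 called genes per list with the smallest adjusted p, and 3 most similar genes per member) were chosen with earlier results of these data known. Olr1, Acp5, Alox15, Cd24a and the genes below the filter fall outside that rule and were named after their values were seen. After the data were seen, 2 comparisons pooling radiation were added, in the order the text gives, with the list of p53 targets. Nothing in the labels says the mice were paired. Same-numbered arrays correlated above 0.1 in all 3 pairs in 5 of 16 comparisons, so blocking on that number was tried as an alternative. The script was tested on simulated data. Nothing identifies separate cages or days, so p-values measure the spread between these mice.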

Additional observations from a re-analysis of the deposited data

How the results depend on the processing

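Each comparison was recomputed under 14 alternatives and without each array in turn, and the number of members called is given here. In this section the share of all genes called stands beside the count for the array weights only. The other counts are therefore not set against a background. Under the neutrophil covariate, 0 were called for radiation against control, for all irradiated against all unirradiated groups and for radiation with a compound against the compound, and Chil3 turned to -0.04 for radiation against control. Fitting only the arrays compared gave 0 for radiation against control and for SEW against control, and 1 for radiation+SEW against SEW and for radiation+FTY against FTY. SEW against control also gave 0 with quantile normalization, no filter, the mean of all probe sets, eBayes without trend, the Gapdh covariate and the adipocyte covariate. Array weights raised the share of all genes called as well, given in brackets: 3 for fTyS (15.1%), 3 for SEW (34.2%) and 1 for FTY (7.41%) against control, 1 for fTyS (9.43%) and 1 for SEW (11.2%) added to radiation, 8 for radiation+fTyS against fTyS (28.8%), 3 for radiation+SEW against SEW (36.2%), 2 for radiation+FTY against FTY (20.1%), 1 for fTyS against SEW (34.6%), 2 for radiation+fTyS against radiation+FTY (19.3%), 2 for the interaction with fTyS (16%) and 2 with SEW (26%), and 6 for radiation with a compound against the compound (40.5%). Without the filter radiation+SEW against SEW gave 1 (Marco). Radiation+FTY against FTY gave 1 with quantile normalization, a filter at the 60th percentile, the Gapdh covariate or the adipocyte covariate. The main fit had called 14.1% of all genes in that comparison. The interaction with SEW gave 1 with median centring and 2 with the adipocyte covariate. With the replicate block the count was 2 for radiation+FTY against FTY and 1 for the interaction with SEW, and the block changed no other count of members (4 for radiation against control). The nearest array shared the replicate number for only 7 of 25 arrays. Leaving out arrays in turn gave 0 to 4 for radiation against control, 0 to 1 for SEW against control and for radiation+FTY against FTY, 0 to 2 for radiation+fTyS against radiation+FTY and for the interaction with SEW, 5 to 6 across all arrays and 3 to 4 across the 9 and 9 mice. The cause of these changes was not tested. Marco lies near background, which limits its precision.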

Other observations

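Genes of the GM-CSF and M-CSF pathway, on which alveolar macrophages depend, were read from a list of 22, of which 21 were tested. With radiation alone 4 rose and 0 fell: the shared receptor chain Csf2rb (1.18 ± 0.16, adjusted p = 0.000342, limma), its relative Csf2rb2 (1.02 ± 0.18), the receptor chain Csf2ra (0.51 ± 0.14) and the transcription factor PU.1 (Spi1, 0.72 ± 0.11). Across the 9 mice given radiation and a compound and the 9 given a compound alone, Spi1 (0.34 ± 0.07) and Tgfb1 (0.31 ± 0.09) rose and Klf4 (-0.33 ± 0.10) fell. Neutrophils and monocytes also use these receptor chains, and their genes moved with radiation as given above.

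Of 18 relatives of the members 5 rose and 1 fell with radiation alone, among them the integrin chain Itgam (1.15 ± 0.19), Chil4 (0.92 ± 0.19) and the cathepsin Ctss (0.39 ± 0.09). Ear3, a relative of the unmatched Ear2, averaged 8.40 on unirradiated and 8.98 on irradiated arrays. Of 9 dendritic-cell genes 1 fell with radiation alone, Dpp4 (-0.32), and of 10 capillary genes 2 fell, Aplnr (-1.77) and Ednrb (-0.30). Across the 9 and 9 mice 3 dendritic-cell genes rose and 0 fell, and 3 capillary genes rose and 3 fell. Of all genes 18.1% rose and 8.27% fell there, so these small counts are not set apart from the background. Of 12 p53 targets 3 rose with radiation alone and 10 rose and 1 fell across the 9 and 9 mice. Called with radiation alone were 0 of 9 skeletal-muscle genes, 0 of 10 cell-division genes and 0 of 3 eosinophil genes, of which Siglecf fell across the 9 and 9 mice.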
